A study of Mus musculus with 6 samples.

Results

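The 34 genes described here encode the enzymes of glycolysis, the transporters and regulators that feed and drain it, and the transcription factors of the hypoxia response with a set of their targets. They were chosen by symbol from a fixed list, and all 34 were found among the 24951 genes of the count table. Glycolysis splits glucose into pyruvate, which is either reduced to lactate or passed to mitochondria, and endothelial cells are known to draw much of their energy from it. The hypoxia-inducible factors (HIF) pair an oxygen-sensitive alpha subunit, encoded by Hif1a, Epas1 or Hif3a, with the constant partner encoded by Arnt. With oxygen present, prolyl hydroxylases of the Egln family mark the alpha subunit and the Vhl complex has it degraded, so its control lies largely in the protein and is not read by RNA sequencing. Most genes of glycolysis are known targets of HIF as a family, and which alpha subunit acts on them was not tested here. Epas1 takes its name from its expression in endothelium.

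RNA was sequenced from lung cells of mouse pups at postnatal day 5, pulled down with beads against CD31, a surface protein of endothelial cells. The 3 mutant libraries came from Smad4 f/f pups with Cdh5-CreERT2, an inducible Cre recombinase driven by an endothelial promoter and known to be switched on by tamoxifen, called Smad4 iECKO in the labels. The 3 control libraries came from Smad4 f/f pups without Cre, so both groups carry the floxed alleles, although the labels call the controls wildtype, and no group has Cre with intact Smad4. The labels give neither the inducing agent nor its timing, and the protocol calls the libraries independent biological samples while it names the mice HHTf/f and HHTiECKO in that sentence. Xist and Y-linked counts read mutant replicate 1 and control replicate 1 as male and the other 4 libraries as female. Reads assigned to genes numbered 16041786 to 20172318 in mutant and 14093564 to 21113926 in control libraries, and the 34 genes took 0.416% to 0.428% of them in mutant and 0.484% to 0.517% in control libraries. Smad4 averaged 85.3 ± 11.1 CPM (read counts scaled to a common library size) in mutant and 182 ± 5.74 CPM in control libraries (SD, n = 3 each). The lower share of the 34 genes in mutant libraries lay in the HIF alpha subunit genes, above all Epas1. Those subunit genes summed to 1360 to 1582 CPM in mutant and 2366 to 2577 CPM in control libraries. Glycolysis genes summed to 2289 to 2607 CPM in mutant and 2134 to 2282 CPM in control libraries. The summed level of 10 endothelial markers was 9192 to 9524 CPM in mutant and 8765 to 9739 CPM in control libraries. Of them only the receptor gene Tek, singled out after its value was seen, was called, lower, or 10% against 3.27% of all tested genes. The groups did not overlap in 50% of the 10, against 20.6% of all tested genes. Higher in every mutant library were 3, Pecam1, Cdh5 and Esam (log2 fold change 0.13, 0.16 and 0.16). Lower in every mutant library were 2, Kdr (-0.17) and Tek (-0.50). Esam and Kdr were also singled out afterwards, and the part of these differences in the members' values was not tested. Of 57 tested markers of 9 other cell types, 0 were called by edgeR, against 3.27% of all tested genes. By edgeR 5 of them, or 8.77%, had an unadjusted p under 0.05, against 14% of all tested genes. DESeq2 called 1 of the 57 and limma-voom 0. The gene DESeq2 called was the pericyte marker Rgs5, singled out after its values were seen, with 69.9, 60.5 and 107 CPM in mutant and 44.0, 41.7 and 29.1 CPM in control libraries (log2 fold change 1.05, adjusted p = 2.71e-05 by DESeq2 and 0.0776 by edgeR). It was higher in every mutant library, while the 8 pericyte and smooth muscle markers together summed to 353 to 449 CPM in mutant and 253 to 372 CPM in control libraries, which overlap, and the part of such cells in the members' values was not tested. Epithelial markers summed to 2922 to 3364 CPM in mutant and 2252 to 4138 CPM in control libraries, and fibroblast markers to 1703 to 2420 CPM in mutant and 1704 to 2164 CPM in control libraries, so both cell types left RNA in the preparations of both groups.

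Promoter stretches of 6 members are printed here, since they show the short core sequence that HIF binds in genes of the different roles. Among these genes are an enzyme of lactate production, the glucose transporter, the kinase that inhibits pyruvate dehydrogenase and a prolyl hydroxylase. Each is the 150 bases before a RefSeq transcription start on GRCm38.p6. It is written 5′ to 3′ on the strand of the gene, with the core motif in capitals. Where a gene had several starts, as Ldha and Pdk1 did, the start whose stretch held the most matches was chosen. The motif searched was ACGTG or GCGTG on either strand, which reads CACGT or CACGC on the other, and matches may overlap, as in CACGTG.
Ldha: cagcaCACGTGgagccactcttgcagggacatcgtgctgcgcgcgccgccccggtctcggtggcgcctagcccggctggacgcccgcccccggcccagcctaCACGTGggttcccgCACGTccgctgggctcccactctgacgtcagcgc
Pgk1: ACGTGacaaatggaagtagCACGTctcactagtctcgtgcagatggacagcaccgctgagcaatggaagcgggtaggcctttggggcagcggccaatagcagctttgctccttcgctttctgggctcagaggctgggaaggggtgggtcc
Slc2a1: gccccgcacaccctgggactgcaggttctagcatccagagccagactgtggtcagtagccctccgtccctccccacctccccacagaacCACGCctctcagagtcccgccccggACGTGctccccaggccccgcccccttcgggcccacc
Pdk1: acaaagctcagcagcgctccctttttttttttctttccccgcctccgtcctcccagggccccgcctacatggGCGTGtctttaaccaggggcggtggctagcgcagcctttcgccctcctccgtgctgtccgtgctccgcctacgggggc
Bnip3: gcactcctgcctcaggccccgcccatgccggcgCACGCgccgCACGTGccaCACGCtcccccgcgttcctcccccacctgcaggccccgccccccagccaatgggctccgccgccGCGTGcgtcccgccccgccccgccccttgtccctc
Egln1: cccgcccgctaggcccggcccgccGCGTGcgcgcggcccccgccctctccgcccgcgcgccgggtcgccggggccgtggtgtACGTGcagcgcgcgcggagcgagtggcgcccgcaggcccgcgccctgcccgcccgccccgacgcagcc
These stretches lie at chr7:46845654-46845803 (plus strand) for Ldha, chrX:106186950-106187099 (plus) for Pgk1, chr4:119108595-119108744 (plus) for Slc2a1, chr2:71873074-71873223 (plus) for Pdk1, chr7:138909507-138909656 (minus) for Bnip3 and chr8:124949255-124949404 (minus) for Egln1. The Ldha and Bnip3 stretches each held 5 matches, those of Pgk1, Slc2a1 and Egln1 held 2 each, and that of Pdk1 held 1. RefSeq windows of 250 bases before to 50 after a start were on hand for 31 of the 34 members, and the motif was in at least 1 window of 28 of them, 19 of 22 glycolysis genes and 9 of 9 hypoxia genes. That is 90.3% of the matched members, against 46.7% of all 27025 genes with a window. By window it was in 36 of 46, or 78.3%, against 43.8% of the 32851 windows of all genes. The windows of the starts not printed held 2 matches for Ldha and 0 for Pdk1. The members' windows were also richer in G and C, with a median of 61.8% against 52.7% for all windows, and the part of base composition in this difference was not tested. A match is a run of letters and not a measured binding site.

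Of the 34 genes, Epas1 fell in the mutants, and it was the only one past the test. Across all 14934 genes tested by edgeR's quasi-likelihood method, 3.27% were called at a Benjamini-Hochberg adjusted p under 0.05, 1.93% higher and 1.34% lower, and among the 33 tested members 1 was called, or 3.03%. Of 22 tested glycolysis genes 0 were called by edgeR, DESeq2 or limma-voom, and 8 had an unadjusted p under 0.05, with 6 higher and 2 lower. Of all tested genes 14% had such a p, 7.55% on the higher side. In the hypoxia response the test passed 1 gene, lower, and left the other 10 uncalled. The member that could not be tested was Eno1.

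**Figure D1:**
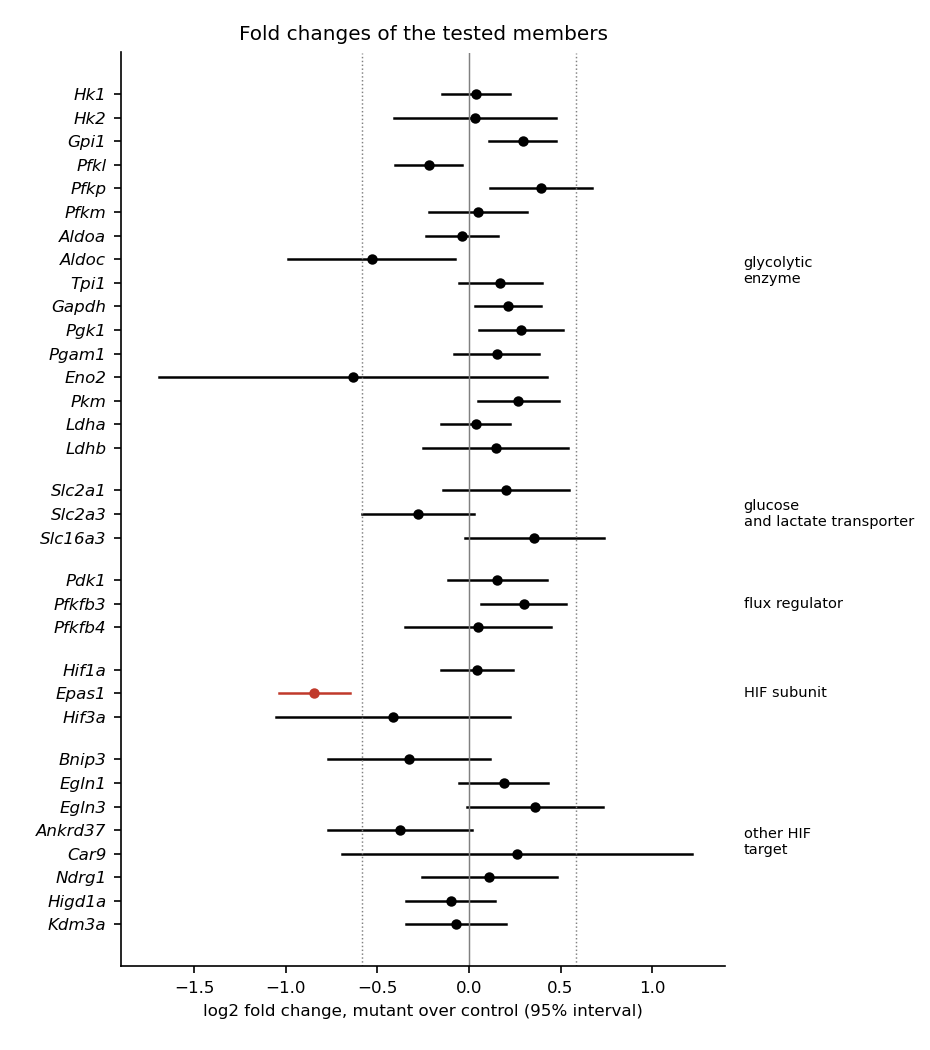
Log2 fold change of mutant over control for the 33 tested members, by role, with 95% intervals as bars and dotted lines at a 1.5-fold change either way. Epas1, in red, is the member called and its interval lies beyond the 1.5-fold line, while the intervals of 18 of 22 glycolysis genes lie within both lines.

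Epas1 (ENSMUSG00000024140.10), located on the plus strand of GRCm38 chromosome 17, positions 86753700 to 86833410, encodes the HIF alpha subunit best known from vascular endothelium. Its level was 1242, 1196 and 1406 CPM in mutant replicates 1, 2 and 3, against 2299, 2204 and 2395 CPM in control replicates 1, 2 and 3. Every mutant library lay far below every control library, and the spread within each group was small beside the gap. On the log2 scale mutant less control came to -0.84 (SE 0.09, 95% interval from -1.04 to -0.65, edgeR adjusted p = 0.000794), so the mutant level was lower by a factor of 1.79. Epas1 was the 5th most abundant of the tested genes by mean CPM in the controls and the 26th in the mutants. Its mean differed by -1018 CPM between mutant and control, the second largest drop in CPM of any tested gene, while by log2 fold change it ranked 72nd among the 200 genes called lower. Within the pups read as male the level was 1242 CPM in 1 mutant and 2299 CPM in 1 control, a log2 ratio of -0.89. Within those read as female the means were 1301 CPM in 2 mutants and 2299 CPM in 2 controls, a log2 ratio of -0.82. The call was kept in all 14 alternative analyses. Since the cells were measured in bulk, fewer cells with much Epas1 and less Epas1 RNA per cell cannot be told apart. No 50-base word of its transcript occurred in a transcript of another gene (0%), so its count is not shared with a copy.

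The other HIF subunits did not pass the test. Hif1a, the alpha subunit found in nearly all cells, had 188, 163 and 175 CPM in mutants and 170, 160 and 180.4 CPM in controls. The groups overlapped, and the 95% interval of the fold change ran from 0.900 to 1.18. Hif3a, whose products can act as inhibitors of the other subunits, was scarce at 1.59, 1.57 and 0.976 CPM in mutants and 1.96, 1.78 and 1.74 CPM in controls. Its mutant libraries lay below its control libraries without overlap, as those of 9.04% of all tested genes did, but the interval was wide, from 0.482-fold to 1.17-fold (adjusted p = 0.573). Per kilobase of exon, Epas1 made up 88.4% ± 1.0 of the 3 subunits' summed level in mutants and 93.4% ± 0.12 in controls (SD, n = 3 each), and Hif1a 11.5% ± 1.0 in mutants and 6.54% ± 0.12 in controls. The count of Epas1 was thus 6.59, 7.35 and 8.05 times that of Hif1a in the mutant libraries and 13.5, 13.8 and 13.3 times in the control libraries. The partner gene Arnt, from the wider pathway, averaged 99.0 ± 5.76 CPM in mutants and 107 ± 4.61 CPM in controls (edgeR adjusted p = 0.624).

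**Figure D2:**
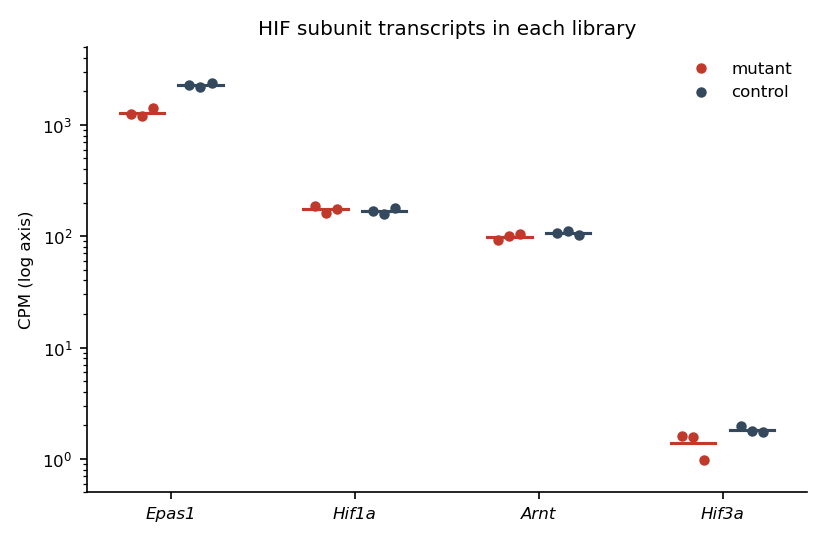
CPM on a log axis of the HIF alpha subunit genes and of their partner gene Arnt, with a point per library and a line at each group mean, mutants left of controls. Epas1 sits lower in each mutant library than in any control library, while Hif1a overlaps between the groups.

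Upstream of the HIF subunits, no gene of oxygen sensing or degradation passed the test. Egln1, the main prolyl hydroxylase, had 77.2, 88.3 and 72.8 CPM in mutants and 77.5, 64.0 and 67.2 CPM in controls, with overlap. Egln3, a hydroxylase that HIF itself induces, had 8.56, 8.79 and 7.56 CPM in mutants and 6.81, 5.63 and 6.90 CPM in controls. Its mutant libraries were all above its control libraries, but the log2 fold change of 0.36 (SE 0.17) did not pass edgeR's test (adjusted p = 0.376). The 15 further regulators tested also include Arnt and other genes that act with the subunits and not upstream of them. Of the 15, 0 were called by edgeR, DESeq2 or limma-voom, where edgeR called 3.27% of all tested genes. An unadjusted p under 0.05 was found for 0 of the 15, against 14% of all tested genes. The median log2 fold change of the 15 was 0.04. Among them Vhl averaged 34.1 ± 0.873 CPM in mutants and 31.8 ± 0.831 CPM in controls, without overlap but with an adjusted p of 0.679. Egln2 averaged 62.6 ± 8.07 CPM in mutants and 64.1 ± 5.66 CPM in controls. Hif1an, which encodes the asparagine hydroxylase of HIF, averaged 55.5 ± 5.38 CPM in mutants and 60.3 ± 8.82 CPM in controls (SD, n = 3 each).

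The 8 HIF targets outside glycolysis had a median log2 fold change of 0.02, with 4 above and 4 below 0, and the range ran from -0.38 to 0.36. None was called by edgeR, DESeq2 or limma-voom, where edgeR called 3.27% of all tested genes. An unadjusted p under 0.05 was found for 0 of the 8, against 14% of all tested genes. Ankrd37, a small ankyrin repeat gene, had 9.39, 10.6 and 12.5 CPM in mutants and 12.2, 12.8 and 17.2 CPM in controls. Bnip3, a gene of mitochondrial clearance, had 11.6, 9.23 and 10.0 CPM in mutants and 16.8, 11.9 and 10.1 CPM in controls. In both genes 2 mutant libraries lay below all controls, while mutant replicate 3 of Ankrd37 and mutant replicate 1 of Bnip3 reached into the control range. Kdm3a, a histone demethylase, averaged 132 ± 7.79 CPM in mutants and 139 ± 23.6 CPM in controls. Higd1a, a mitochondrial inner membrane gene, averaged 27.2 ± 1.31 CPM in mutants and 29.2 ± 2.69 CPM in controls. Ndrg1, a stress-responsive gene, averaged 68.3 ± 13.5 CPM in mutants and 63.2 ± 9.51 CPM in controls. Car9, the carbonic anhydrase often used as a marker of hypoxia, lay near the low end of what was counted, with 1.48, 1.13 and 1.66 CPM in mutants and 0.560, 2.07 and 1.11 CPM in controls. Its interval, from 0.618-fold to 2.33-fold, leaves room for a sizeable difference in either direction. Of the Higd1a and Bnip3 transcripts, 36.6% and 62.5% of 50-base words also occur in transcripts of other genes, so both are less certain as single genes. For Ndrg1 and Ankrd37 the share was 14.6% and 11.4%.

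In glycolysis, 17 of 22 tested genes had a log2 fold change above 0, where 49.5% of all tested genes did, and the list median was 0.15 against -0.0024 for all genes. None of these differences was called with all 6 libraries. The groups did not overlap in 9 of the 22 genes, or 40.9%, against 20.6% of all tested genes. In 7 genes every mutant library was above every control library (11.6% of all tested genes), and in 2 every mutant was below (9.04% of all). The 7 were Gpi1, Pfkp, Gapdh, Pgk1 and Pkm among the enzymes, Slc16a3 among the transporters and Pfkfb3 among the regulators. The 2 were Pfkl and Aldoc. The median of the 22 genes, set against the control mean of each on the log2 scale, was 0.16, 0.20 and 0.02 in mutant replicates 1, 2 and 3 and -0.060, 0.0063 and 0.07 in control replicates 1, 2 and 3. By that value mutant replicate 3 lay below control replicate 3, so the groups overlapped. The summed level of the glycolysis genes, which the most abundant ones set, was 2452, 2607 and 2289 CPM in mutants and 2140, 2134 and 2282 CPM in controls, with mutant replicate 3 and control replicate 3 nearly level.

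**Figure D3:**
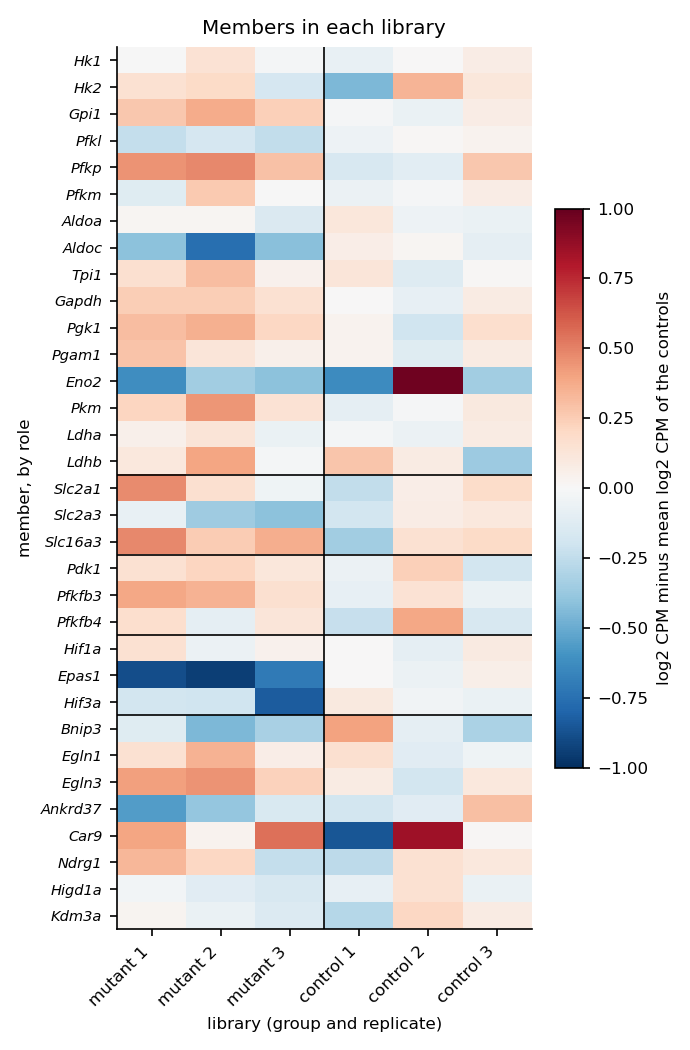
Log2 CPM of the 33 tested members in each library, less the mean log2 CPM of the controls, with rows by role (enzymes, transporters, regulators, HIF subunits, other targets) and mutants left of controls. Epas1 is blue in all 3 mutant libraries, and Eno2 and Car9, counted at low levels, vary most among controls.

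No gene of glucose entry or trapping passed the test. Slc2a1, the main glucose transporter of endothelium, had 46.5, 37.5 and 32.6 CPM in mutants and 28.2, 35.03 and 38.1 CPM in controls. Slc2a3, a transporter of high glucose affinity, had 22.6, 18.6 and 17.9 CPM in mutants and 21.0, 25.1 and 25.6 CPM in controls. Both overlapped between groups, and neither passed edgeR's test (adjusted p = 0.614 and 0.407). Hexokinase, which phosphorylates glucose, was read from Hk1 at 148 ± 9.40 CPM in mutants and 144 ± 7.04 CPM in controls, and from Hk2 at 21.3 ± 2.80 CPM in mutants and 20.8 ± 5.52 CPM in controls. Per kilobase, Hk1 made 83.0% of the hexokinase level in mutants and 83.0% in controls. Gpi1, which turns glucose phosphate into fructose phosphate, had 307, 329 and 299 CPM in mutants and 253, 243 and 268 CPM in controls. It had the smallest p of the glycolysis genes, with a log2 fold change of 0.29 and an SE of 0.08 (edgeR adjusted p = 0.0997), and its adjusted p ran from 0.0676 to 0.330 over the alternatives. Of its 50-base words, 25.3% occur in a transcript of another gene, so its count may hold or lack reads of such copies.

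At phosphofructokinase, the committed step, no subunit gene passed the test with all 6 libraries. Pfkp, the platelet type, had 67.1, 68.6 and 60.2 CPM in mutants and 44.0, 45.6 and 59.2 CPM in controls, and Pfkl, the liver type, had 74.4, 78.1 and 74.0 CPM in mutants and 85.1, 88.7 and 90.1 CPM in controls. Pfkp was higher and Pfkl lower in each mutant library than in any control library, though control replicate 3 of Pfkp came close to the mutants. The log2 fold change was 0.40 (SE 0.13, adjusted p = 0.154 by edgeR) for Pfkp and -0.22 (SE 0.08, adjusted p = 0.244) for Pfkl. Without control replicate 3 Pfkp was called higher, with a log2 fold change of 0.54 (edgeR adjusted p = 0.0455), and this was the only call of a glycolysis gene in any of the 14 alternatives. The count of Pfkp was 0.901, 0.879 and 0.814 times that of Pfkl in mutant libraries and 0.518, 0.515 and 0.657 times in control libraries. Pfkm, the muscle type, averaged 31.3 ± 4.38 CPM in mutants and 30.2 ± 1.47 CPM in controls. Summed per kilobase of exon over the 3 genes, the step stood at 25.6 ± 1.81 in mutants and 25.9 ± 1.39 in controls (SD, n = 3 each). Of the 50-base words of Pfkp, 17.1% also belong to Pitrm1, a gene on the other strand that overlaps it, whose log2 fold change was 0.14 (edgeR adjusted p = 0.622).

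Aldolase, which splits the sugar, was nearly all Aldoa, at 181, 181 and 161 CPM in mutants and 193, 172 and 171 CPM in controls. The brain-type Aldoc had 3.29, 2.57 and 3.27 CPM in mutants and 4.62, 4.49 and 4.15 CPM in controls, lower in every mutant library but not called (log2 fold change -0.53, SE 0.21, edgeR adjusted p = 0.264). Tpi1, the triose phosphate isomerase, averaged 99.3 ± 9.03 CPM in mutants and 88.1 ± 7.83 CPM in controls.

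Among the later steps of the pathway, which yield ATP, several genes stood somewhat higher in each mutant library. Gapdh, glyceraldehyde phosphate dehydrogenase and a common reference gene for expression assays, had 271, 271 and 254 CPM in mutants and 229, 216 and 242 CPM in controls. Pgk1, phosphoglycerate kinase, had 141, 146 and 132 CPM in mutants and 117, 99.0 and 128 CPM in controls. Pkm, pyruvate kinase, had 543, 635 and 517 CPM in mutants and 440.4, 463 and 502 CPM in controls. In each of these genes the lowest mutant library was just above the highest control library, control replicate 3. Their log2 fold changes were 0.21 for Gapdh, 0.28 for Pgk1 and 0.27 for Pkm, and none passed edgeR's test (adjusted p = 0.252, 0.231 and 0.237). Pgam1, phosphoglycerate mutase, averaged 51.0 ± 4.28 CPM in mutants and 45.9 ± 3.32 CPM in controls. Words of 50 bases from Gapdh also occur in transcripts of 222 other genes, those of Pgk1 in 5, of Pgam1 in 4 and of Pkm in 8. The share of such words was 82.5% for Gapdh, 68.0% for Pgk1, 41.5% for Pgam1 and 34.4% for Pkm. The counts of these members may therefore hold or lack reads of those other genes.

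Enolase could not be read. Eno1, the enolase of most tissues, had 0 reads in 5 libraries and 1 read in control replicate 2, and 72.2% of its 50-base words occur in transcripts of other genes, with 70.5% of all its words found in Eno1b. Eno1b, named here after its values were seen, had 460, 251 and 247 reads in mutant replicates 1, 2 and 3 and 283, 4 and 7 reads in control replicates 1, 2 and 3, against 9890, 10109 and 10594 reads of Pkm in mutants and 9439, 6509 and 10401 in controls. The counts of Eno1b spanned 4 to 283 reads among the controls alone, and the sources used here do not give how reads with several matches were counted. The neuronal enolase Eno2 was at 0.659, 0.816 and 0.780 CPM in mutants and 0.653, 2.21 and 0.820 CPM in controls.

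At the end of the pathway, Ldha, which makes lactate from pyruvate, had 285, 301 and 263 CPM in mutants and 272, 264 and 291 CPM in controls. Its groups overlapped, and the 95% interval ran from 0.899-fold to 1.17-fold. Ldhb, the form that favours the reverse reaction, averaged 22.5 ± 3.42 CPM in mutants and 20.4 ± 4.41 CPM in controls. Other genes' transcripts hold 16.7% of the 50-base words of Ldha and 27.0% of those of Ldhb. Slc16a3, the lactate exporter of glycolytic cells, had 15.3, 13.1 and 14.1 CPM in mutants and 8.59, 12.2 and 12.5 CPM in controls. Each mutant library was above each control library, and the log2 fold change of 0.36 had an SE of 0.17 (edgeR adjusted p = 0.392). Pdk1, the kinase that inhibits pyruvate dehydrogenase, had 37.5, 39.0 and 36.5 CPM in mutants and 32.3, 39.7 and 29.7 CPM in controls, with overlap.

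Pfkfb3 makes the fructose bisphosphate that activates phosphofructokinase and is known to drive glycolysis in sprouting vessels. It had 70.9, 68.8 and 60.3 CPM in mutants and 51.2, 59.96 and 51.6 CPM in controls. The groups did not overlap, by less than 1 CPM between mutant replicate 3 and control replicate 2, and the log2 fold change of 0.30 (SE 0.11) did not pass edgeR's test (adjusted p = 0.213). Its relative Pfkfb4 had 16.6, 13.9 and 16.1 CPM in mutants and 12.6, 19.4 and 13.3 CPM in controls, which overlap.

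Levels of different genes were compared per kilobase of exon. On that scale Epas1 ranked first of the 34 genes in both groups, at 229 ± 19.8 in mutants and 411 ± 17.0 in controls, followed by Pkm at 113 ± 12.4 in mutants and 93.7 ± 6.17 in controls and Ldha at 85.5 ± 5.77 in mutants and 83.3 ± 4.19 in controls (SD, n = 3 each). Hif1a ranked 9th in both groups. With the length of the longest transcript in place of all exons, the same 3 genes came first in both groups. By step, the summed level per kilobase was 0.966 times the control mean for aldolase and 1.22 times for glucose phosphate isomerase and phosphoglycerate kinase, the lowest and highest of the 10 steps read. Levels of Gpi1, Aldoa, Tpi1, Gapdh, Pgk1, Pgam1, Pkm, Ldha and Ldhb per kilobase share the limit of their sequence copies. That of Pfkp shares the limit of the overlapping gene Pitrm1.

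**Figure D4:**
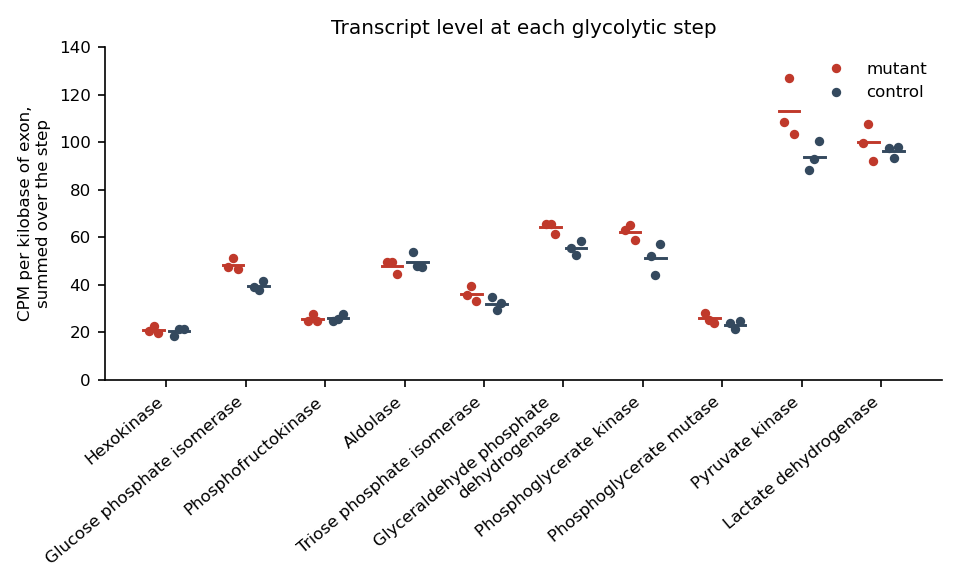
Transcript level at 10 glycolytic steps in order of the pathway, as CPM per kilobase of exon summed over the members of a step, with a point per library and a line at each group mean, mutants left of controls. Hexokinase, phosphofructokinase, aldolase, triose phosphate isomerase, phosphoglycerate mutase and lactate dehydrogenase overlap between the groups, and pyruvate kinase and lactate dehydrogenase hold the highest levels.

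Ratios between related members within a library do not depend on how libraries are scaled, and 9 such ratios were compared. In 5 of them the groups did not overlap, and the share over other pairs of genes was not taken. Pfkp over Pfkl differed by 0.63 and Pfkm over Pfkl by 0.26 on the log2 scale, both higher in the mutants. Aldoc over Aldoa differed by -0.50, Slc2a3 over Slc2a1 by -0.48 and Epas1 over Hif1a by -0.89, all lower in the mutants. Each of these 5 had an exact two-sided permutation p of 0.1, the smallest that 3 against 3 libraries allow, and a Benjamini-Hochberg adjusted p of 0.18 over the 9, so none could pass. The ratios partly restate single members, since Pfkp, Pfkl, Aldoc and Epas1 also did not overlap alone. Pfkp over Pfkl and Pfkm over Pfkl share Pfkl, so they are not separate results. The count of Slc2a3 was 0.487, 0.496 and 0.548 times that of Slc2a1 in mutants and 0.744, 0.716 and 0.672 times in controls. This gap is wider than that of either gene because it combines opposite shifts, neither of them called. The log2 fold change was -0.28 for Slc2a3 and 0.20 for Slc2a1. Hk2 over Hk1, Ldhb over Ldha, Pfkfb4 over Pfkfb3 and Egln3 over Egln1 overlapped between the groups.

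**Figure D5:**
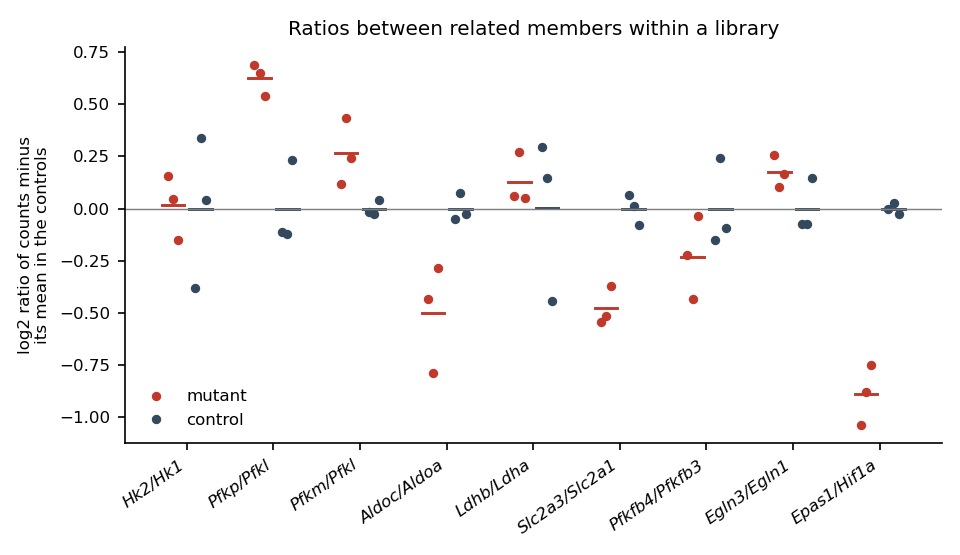
Log2 ratio of counts between 2 related members in each library, less the mean of that ratio in the controls, with a point per library and a line at each group mean, mutants left of controls. The mutants stand apart for Pfkp/Pfkl, Pfkm/Pfkl, Aldoc/Aldoa, Slc2a3/Slc2a1 and Epas1/Hif1a, by differences of 0.63, 0.26, -0.50, -0.48 and -0.89.

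Of 37 tested further HIF targets outside the 34 genes, 1 rose and 1 fell, or 5.41% against 3.27% of all tested genes, with a median log2 fold change of 0.02. DESeq2 called 6 of them and limma-voom 2, and 9, or 24.3%, had an unadjusted p under 0.05 by edgeR, against 14% of all tested genes. Flt1, a receptor and trap of vascular endothelial growth factor, averaged 448 ± 13.5 CPM in mutants and 590.1 ± 46.0 CPM in controls (log2 fold change -0.40, edgeR adjusted p = 0.0337). Pgf, the placental growth factor that binds the Flt1 product, averaged 11.5 ± 1.85 CPM in mutants and 5.64 ± 1.61 CPM in controls (log2 fold change 1.04, adjusted p = 0.0407). Neither call held throughout. Among the 6 analyses without a library, that of Flt1 was kept only without control replicate 1 and that of Pgf only without mutant replicate 3, with adjusted p up to 0.162 and 0.189, both without mutant replicate 2. With the replicate number as a block both ended (adjusted p = 0.0640 and 0.0550). Vegfa, a growth factor gene that HIF is known to induce, had 476, 441 and 378 CPM in mutants and 542, 678 and 453 CPM in controls, with overlap (log2 fold change -0.37, adjusted p = 0.296). Adm, which encodes adrenomedullin, had 12.4, 12.4 and 10.2 CPM in mutants and 4.25, 8.47 and 8.20 CPM in controls, without overlap but not called (log2 fold change 0.75, adjusted p = 0.182).

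For most of the 33 tested genes the 95% intervals were narrow enough to bound the change. They lay within 1.5-fold in both directions for 18 of 22 glycolysis genes and for 5 of 11 hypoxia genes, as they did for 61.5% of all tested genes. Those of Pfkp, Aldoc, Eno2 and Slc16a3 in glycolysis, and of Epas1, Hif3a, Bnip3, Egln3, Ankrd37 and Car9 in the hypoxia response, reached past 1.5-fold. Among the marker lists, the summed lymphocyte markers stood at 105 to 122 CPM in mutants and 88.6 to 104 CPM in controls, and the erythroid markers at 8.13 to 11.3 CPM in mutants and 12.03 to 12.9 CPM in controls, without overlap. The 4 globin genes of the erythroid list, Hba-a1, Hba-a2, Hbb-bs and Hbb-bt, also singled out afterwards, were listed at 0 in all 6 libraries, and globins also have near-identical copies. The part of these cells in the members' values was not tested. Cell division genes summed to 1642 to 1803 CPM in mutants and 1424 to 2044 CPM in controls.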

How the data were processed

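Polyadenylated RNA of CD31-selected lung cells was sequenced, 3 mutant and 3 control libraries. The authors deposited raw counts per gene symbol, whole numbers with no normalization, as a series table and per library, with 0 values differing between these forms. Per the submitters' processing notes the build was mm10 and DESeq2 was used. Not given in the sources used here are the aligner, counter, annotation and use of strand. Reads with no feature (53.9% to 58.2% of each library) and ambiguous reads (0.288% to 0.366%) were left out.

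Counts were fitted in R 4.3.3 with edgeR 4.0.16: filterByExpr (14934 of 24951 genes kept), TMM factors, robust quasi-likelihood fits, mutant against control, Benjamini-Hochberg over all tested genes, called at an adjusted p under 0.05. SE is the log2 fold change over the square root of F, and 95% intervals use the fit's t quantile. CPM uses TMM-scaled library sizes, and 3 counts correspond to 0.140 to 0.214 CPM. Ratios used counts plus 0.5. Scripts were tested on simulated data. Alternatives were DESeq2 1.42.0, limma-voom (limma 3.58.1), other scaling and filters, a replicate block, sex as a covariate and leaving out each library. Every replicate pair differed beyond sampling noise (chi-square per degree of freedom at least 12.3). P-values of the edgeR fit set the difference between groups against the spread between these libraries, moderated across genes.

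The members and lists were chosen with earlier results of these data known. Genes that could be named were all members, Smad4, 9 fixed pathway genes, any called pathway gene, and Pecam1, Cdh5 and the most abundant marker of each list. Symbols were matched to GENCODE M21 for coordinates and exon lengths. Its build, GRCm38, is the assembly also called mm10.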

Additional observations from a re-analysis of the deposited data

How the results depend on the processing

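The log2 fold change of Epas1 ran from -0.91 to -0.80 over the 14 alternatives, each with a call, and without single libraries its adjusted p was at most 0.0111 (without mutant replicate 2). Of the 33 tested members, 21 kept their sign in all 14. The other 12 changed sign only when a library was left out, each then with an adjusted p of at least 0.644. Their ranges over those 6 analyses were -0.012 to 0.076 for Hk1, -0.16 to 0.21 for Hk2, -0.064 to 0.13 for Pfkm, -0.071 to 0.023 for Aldoa, -0.95 to 0.028 for Eno2, -0.0099 to 0.088 for Ldha, -0.017 to 0.30 for Ldhb, -0.061 to 0.27 for Pfkfb4, -0.11 to 0.78 for Car9, -0.013 to 0.27 for Ndrg1, -0.20 to 0.033 for Kdm3a and -0.015 to 0.094 for Hif1a. The ratio Hk2/Hk1 ranged from -0.17 to 0.19 and Ldhb/Ldha from -0.10 to 0.27. Among named pathway genes Egln2 ranged from -0.14 to 0.019, Slc16a1 from -0.055 to 0.20 and Mpc1 from -0.29 to 0.0055.

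The number of all genes called was 488 (288 higher, 200 lower), 747 (445 and 302) with DESeq2, and 211 to 428 without single libraries (131 to 257 higher, 80 to 204 lower). Glycolysis calls were 0 to 1 without single libraries, the 1 being Pfkp higher without control replicate 3. Calls among the 104 other pathway genes were 2, with 6 by DESeq2 (4 higher, 2 lower), 5 with no low-count filter (4 higher), 1 with the replicate block (0 higher; the gene was Edn1, singled out after its values were seen, and neither Flt1 nor Pgf), 2 higher and 0 lower with sex as a covariate, and 0 to 2 without single libraries (0 to 2 higher, 0 to 1 lower). The causes were not tested. With the replicate number as a block Epas1 had a log2 fold change of -0.85 (adjusted p = 0.000713), no member was gained or lost, and 466 genes were called in all. The numbers come from titles. The correlation of deviations of same-numbered libraries was -0.0096, 0.019 and 0.156, and 1 of 3 mutant libraries correlated best with its own number. Another scaling moved the median log2 fold change of all genes by at most 0.015. Intervals cover counting error and the spread between these libraries, and low counts limit Eno2, Car9 and Hif3a.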

Other observations

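Genes that carry glucose carbon onward from glycolysis showed no call. Of all tested genes edgeR called 3.27%, and 14% had an unadjusted p under 0.05. Of 17 tricarboxylic acid cycle genes, which oxidise acetyl groups in mitochondria, 0 were called by edgeR, DESeq2 or limma-voom and 0 had an unadjusted p under 0.05. Their log2 fold changes ran from -0.02 to 0.24 with a median of 0.11, and 15 of 17 were above 0. In 6 of the 17, or 35.3%, every mutant library was above every control library, against 11.6% of all tested genes, and all 17 intervals lay within 1.5-fold. Of 8 pentose phosphate genes 0 were called by the same tools, 1 had an unadjusted p under 0.05, and the median was 0.12. Among them G6pdx, the X-linked gene of the entry enzyme, had 36.6, 35.3 and 38.5 CPM in mutants and 32.3, 32.7 and 31.2 CPM in controls, without overlap (log2 fold change 0.20, edgeR adjusted p = 0.391). Of 27 other glycolytic and pyruvate genes 0 were called by the same tools and 0 had an unadjusted p under 0.05, with a median of -0.0018. Slc16a1, a lactate transporter, averaged 46.8 ± 7.78 CPM in mutants and 44.1 ± 6.62 CPM in controls, and Mpc1, a subunit of the mitochondrial pyruvate carrier, averaged 16.8 ± 3.36 CPM in mutants and 18.4 ± 3.07 CPM in controls (SD, n = 3 each).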
